A study of Mus musculus with 6 samples.

Results

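The genes described here build the junctions that hold intestinal epithelial cells together: tight junction, adherens junction and desmosome genes, with the adhesion gene Epcam. They were chosen by name as the claudin genes of the table, the scaffold genes Tjp1 and Tjp3 and 17 further named genes, which gave 51 of 24930 genes. Of these 51, the 26 whose mean over all 6 libraries reached 1 unit were tested, 15 claudins lay below that mean, and 10 claudins were listed at 0 in every library. Poly-A RNA of mouse intestinal crypt epithelium had been sequenced in 3 β-catenin GOF/+ libraries, with a single gain-of-function β-catenin allele induced 4 days earlier, and in 3 libraries labelled control. The labels give no strain, age, Cre driver or inducing agent, do not state the alleles of the controls, and leave unsaid if each library is its own animal. Sex-linked genes marked mutant replicate 1 and control replicates 1 and 2 as male and the others as female. The p-values rest on the spread among these 6 libraries, some of which may be technical.

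Tight junctions seal the gap between neighbouring cells near the apical surface. Their claudins are membrane proteins that set which ions pass between cells, and their cytoplasmic scaffolds, the zonula occludens proteins, tie claudins and occludin to actin. Adherens junctions lie below and use E-cadherin, held to actin through catenins, while desmosomes use desmosomal cadherins held to keratin filaments through plakoglobin, plakophilins and desmoplakin. β-catenin, the protein altered in the mutant crypts, is itself a partner of E-cadherin at adherens junctions as well as the effector of WNT signalling. In the mouse intestine claudin-2 is known from the crypts, and claudin-4 mainly from the differentiated surface.

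Values are the authors' normalized abundance per gene, called units. They behaved as an abundance per transcript length: among 393 genes that were above 0 in 1 library only and have 1 annotated transcript, the value fell with transcript length (Spearman rho of -0.79 across genes, which are not independent replicates). Library totals ranged from 645225 to 1268771 units, and how many reads lie behind a unit is unknown. Epithelial identity was plain in every library: the summed level of 7 epithelial markers, which include Epcam, was 4660 to 5940 units in mutant and 4090 to 4950 units in control libraries. The summed level of 9 stromal markers was 13.7 to 29.9 units in mutant and 0.742 to 2.38 units in control libraries. Of the 9, 8 were higher in every mutant library than in any control library, beside 8.34% of all genes tested. Among these 8, Col1a1, Lum and Pdgfra had a mean under 1 unit and were not tested. The 10 enterocyte markers summed to 10800, 5080 and 22100 units in mutant replicates 1 to 3 and to 3060, 4280 and 8460 units in control replicates 1 to 3. The 7 markers of fetal or regenerating epithelium summed to 520 units in mutant replicate 3, against 19.1 and 23.3 units in the other mutant libraries and 6.86 to 25.8 units in control libraries. The 7 immune markers summed to 33.8, 34.1 and 103 units in mutant replicates 1 to 3 and 46.7, 22.4 and 50.2 units in control replicates 1 to 3. Of these immune markers, Itgam was lowest in mutant replicate 3, at 3.12 units. The part of immune cells in the junction values was not tested. Ctnnb1, the β-catenin gene, averaged 261 ± 24.4 units in mutant and 256 ± 15.1 units in control libraries (SD, n = 3 each). This level is over all exons, so it cannot check the altered allele.

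The comparison of mutant with control crypts called no junction gene. At an adjusted p under 0.05 in limma 0 of the 26 members were higher and 0 were lower, against 2 of all 11837 genes tested, or 0.0169%, both of them lower. The adjusted p of the members ran from 0.589 to 0.990. At an unadjusted p under 0.05, 5 members were higher and 0 lower, where 4.72% of all genes were higher and 3.59% were lower. The same 5, namely Cldn4, Pkp3, Jup, Cldn3 and Pkp2, were the members whose 3 mutant values all lay above the 3 control values. They are 19.2% of the members tested, beside 8.34% of all genes. No tested member had every mutant value below every control value, beside 8.37% of all genes tested. In bulk RNA, fewer cells of a type and less RNA per cell cannot be told apart in any of these values.

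**Figure D1:**
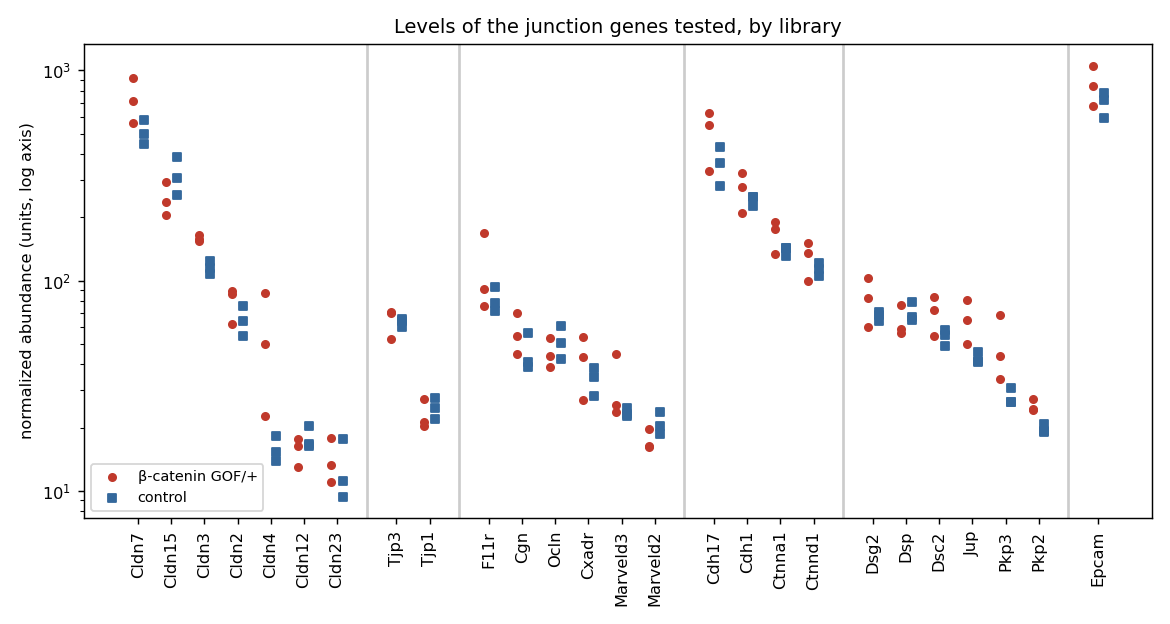
Normalized abundance of the 26 junction genes tested, on a log axis, with 1 point per library (circles, β-catenin GOF/+; squares, control) and grey lines between roles. Epcam, Cldn7 and Cdh17 had the highest levels, and the 3 mutant points of Cldn4 lie above its 3 control points.

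Claudins differed widely in level, and 7 of 32 had a mean of at least 1 unit. In mutant libraries the order by mean level was Cldn7, Cldn15, Cldn3, Cldn2, Cldn4, Cldn12 and Cldn23, with overlapping values for the neighbours Cldn2 and Cldn4 and for Cldn12 and Cldn23. In control libraries Cldn12 stood before Cldn4, and Cldn12, Cldn4 and Cldn23 overlapped each as neighbours. Of the 7, 5 were higher and 2 lower in mutant crypts, 0 were called, and the median log2 difference was 0.28.

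Cldn4, a claudin of differentiated surface epithelium that tightens the barrier to sodium, had 49.8, 22.6 and 87.6 units in mutant replicates 1 to 3, against 18.2, 15.2 and 13.8 units in control replicates 1 to 3. The groups did not overlap, and mutant replicate 2 stood close above the controls. The log2 difference was 1.51 ± 0.44 (SE), the largest of the 26 members, with an unadjusted p of 0.0117 and an adjusted p of 0.589 in limma. With each library left out, the Cldn4 difference ran from 1.06 (without mutant replicate 3) to 2.01 (without mutant replicate 2). Cldn3, its neighbour on the chromosome and also a sealing claudin, had 166, 157 and 155 units in mutants, against 108, 115 and 123 units in control libraries. The mutant values of Cldn3 were close to each other and all above the controls. Its log2 difference was 0.46 ± 0.14 (adjusted p of 0.589 in limma), and leaving out any one library kept it between 0.42 and 0.51. The ratio of Cldn4 to Cldn3 was 0.301, 0.144 and 0.565 in mutant replicates 1 to 3 and 0.169, 0.133 and 0.112 in control replicates 1 to 3, so mutant replicate 2 lay within the control range for this ratio.

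The 250 bases before the start of Cldn4, Cldn3 and Cldn15 are shown. Cldn4 and Cldn3 were taken because they are the tested claudins whose groups did not overlap and are neighbours. They lie 39278 bases apart on opposite strands, with no other RefSeq gene wholly between them. Cldn15 was taken because it had the lowest log2 difference of the claudins tested. The sequences are from RefSeq on GRCm38.p6, which is not the mm9 build named for the deposited values. Capitals mark matches, on either strand, to 4 motifs: TGANTCA of AP-1 factors, CAGGTG of the E-box bound by SNAIL family repressors, CTTTGA of TCF/LEF factors and GGAATG of TEAD factors.
Cldn4, chr5:134946935-134947184, minus strand: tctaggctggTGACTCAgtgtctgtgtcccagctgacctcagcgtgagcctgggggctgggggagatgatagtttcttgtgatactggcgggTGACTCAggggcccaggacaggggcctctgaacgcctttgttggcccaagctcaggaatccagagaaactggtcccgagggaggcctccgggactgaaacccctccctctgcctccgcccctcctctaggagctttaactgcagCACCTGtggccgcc
Cldn3, chr5:134985964-134986213, plus strand: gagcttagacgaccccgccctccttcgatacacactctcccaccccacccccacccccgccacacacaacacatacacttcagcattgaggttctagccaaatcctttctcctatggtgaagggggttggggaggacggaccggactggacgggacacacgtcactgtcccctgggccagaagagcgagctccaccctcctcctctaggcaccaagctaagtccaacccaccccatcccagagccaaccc
Cldn15, chr5:136967619-136967868, plus strand: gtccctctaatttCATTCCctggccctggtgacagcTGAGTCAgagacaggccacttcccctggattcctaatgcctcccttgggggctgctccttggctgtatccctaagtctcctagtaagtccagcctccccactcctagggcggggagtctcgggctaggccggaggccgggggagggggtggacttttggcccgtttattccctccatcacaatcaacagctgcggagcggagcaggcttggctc

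The Cldn4 window held 2 AP-1 matches, which begin 240 and 158 bases before the start, and an E-box match 14 bases before it. The Cldn3 window held none of the 4 motifs, and the Cldn15 window held 1 AP-1 and 1 TEAD match. Of 32536 windows of the same length in the table, 6.73% held the AP-1 motif and 0.338% held it more than once, 17.3% held the E-box, 13.9% the TCF/LEF motif and 12.6% the TEAD motif. Among 23 windows of the 16 tested members found in the table, 3 held AP-1 (Cldn4, Cldn15 and F11r), 7 the E-box, 0 the TCF/LEF motif and 3 the TEAD motif, and no matches overlapped each other. These are matches of letters and not measured sites.

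Cldn7, the most abundant claudin here and one bound by EPCAM at the basolateral membrane, had 712, 563 and 921 units in mutants, against 444, 499 and 583 units in control libraries. Mutant replicate 2 lay within the control range and the others above it. The log2 difference was 0.50 ± 0.25 (adjusted p of 0.589 in limma), and it was 0.32 without mutant replicate 3. Cldn15, which forms the sodium pore of the small intestine, had 295, 236 and 206 units in mutants, against 256, 306 and 387 units in control libraries. The groups overlapped, with mutant replicates 2 and 3 below every control, and the log2 difference was -0.36 ± 0.23 (adjusted p of 0.602 in limma). For Cldn15 it was -0.20 without control replicate 3, -0.24 without mutant replicate 3 and -0.05 with array weights. Cldn2, the other cation pore claudin and one of crypt cells, averaged 79.3 ± 15.1 units in mutant and 64.7 ± 10.5 units in control libraries. Cldn12 averaged 15.7 ± 2.38 and Cldn23 14.0 ± 3.50 units in mutants, against 17.8 ± 2.24 units of Cldn12 and 12.7 ± 4.32 units of Cldn23 in control libraries. The spread between libraries was larger than the difference for Cldn23.

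The shares of 3 of the 7 claudins in the summed claudin units did not overlap between the groups, a pattern noticed after the values were seen. Cldn7 made up 54.0, 51.4 and 61.7% of the summed claudin units in mutant libraries and 48.3, 47.7 and 48.7% in control libraries. Cldn15 made up 22.4, 21.6 and 13.8% in mutant and 27.8, 29.3 and 32.3% in control libraries. Cldn4 made up 3.78, 2.06 and 5.87% in mutant and 1.98, 1.46 and 1.15% in control libraries. The shares of the other 4 overlapped, and that of Cldn2 was 4.71 to 7.91% in mutant and 4.54 to 7.21% in control libraries. Shares of a sum are not independent of each other, and they were picked after their values were seen, so no test was made. All claudins together summed to 1317, 1095 and 1491 units in mutant and 919, 1045 and 1198 units in control libraries.

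**Figure D2:**
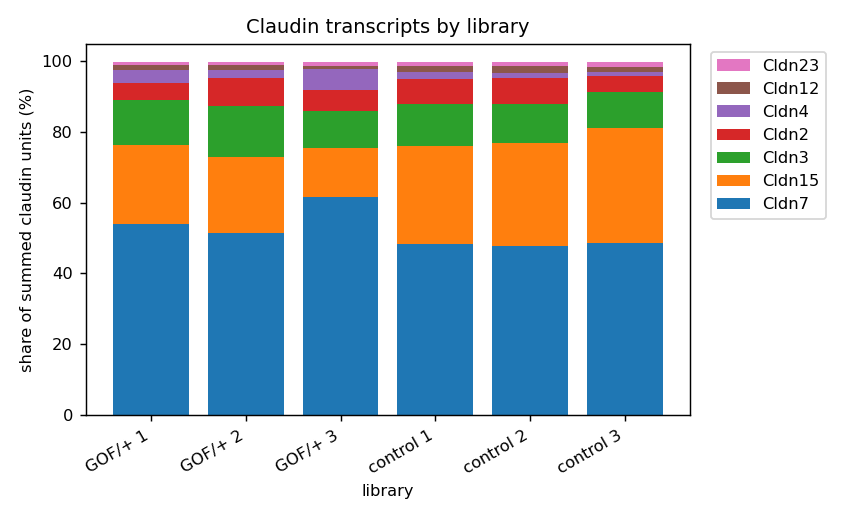
Share of the summed claudin units in each library taken by each of the 7 claudins tested, in percent, with β-catenin GOF/+ libraries on the left. Cldn15 takes 13.8 to 22.4% in the mutant libraries and 27.8 to 32.3% in the control libraries.

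The other 25 claudins were low or listed at 0 and were not tested. The highest of them were Cldn8, at 0.589 ± 0.386 units in mutant and 0.888 ± 0.398 units in control libraries, and Cldn20, at 0.296, 0.436 and 0.167 units in mutant and 0.590, 0.861 and 0.518 units in control libraries. All mutant values of Cldn20 were under its control values. Cldn20 overlaps the gene Tfb1m, which stood at 5.23 units in mutant and 6.96 units in control libraries on average. The sources used here do not say that the counting used strand, and sharing of reads between these genes was not tested. Cldn5, the claudin of endothelial cells, was above 0 in control replicate 1 alone, at 0.0557 units. Cldn1 had at most 0.10 units in mutant and 0.0935 units in control libraries, and the stomach and lung claudin gene Cldn18 was above 0 in mutant replicate 3 alone, at 0.0298 units. Cldn10 had 0, 0.264 and 0.471 units in mutant libraries and was listed at 0 in all control libraries. The 10 listed at 0 throughout were Cldn13, Cldn17, Cldn24 and 7 rows of the Cldn34 family, whose near-identical copies can share reads.

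Tjp3 and Tjp1 encode zonula occludens scaffolds, which bind claudins and occludin to actin, and their groups overlapped. Tjp3, the more abundant, had 69.9, 70.9 and 52.5 units in mutants, against 60.4, 64.3 and 66.0 units in control libraries. Mutant replicate 3 was the lowest of the 6 and the other mutant libraries the highest, for a log2 difference of 0.01 ± 0.16 whose sign turned when values were rescaled by the upper quartile (-0.014). Tjp3 overlaps the gene Apba3, which averaged 18 units in mutant and 12.7 units in control libraries. Tjp1 had 27.4, 20.3 and 21.3 units in mutants, against 21.9, 24.8 and 27.6 units in control libraries. Mutant replicates 2 and 3 were below every control and mutant replicate 1 was within the control range, for a log2 difference of -0.11 ± 0.17 (adjusted p of 0.804 in limma) that turned to 0.15 with array weights.

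The remaining tight junction genes overlapped between the groups. F11r, which encodes the adhesion molecule JAM-A, had 91.6, 75.5 and 168 units in mutants, against 71.8, 78.5 and 93.4 units in control libraries. Mutant replicate 3 alone lay above the controls, and the log2 difference of 0.38 ± 0.30 was 0.04 without it (adjusted p of 0.643 in limma with all libraries). Cgn, the gene of the cytoplasmic linker cingulin, had 54.4, 44.8 and 69.9 units in mutants, against 41.0, 38.8 and 56.3 units in control libraries. Again mutant replicate 3 alone was above every control (log2 difference of 0.30 ± 0.22, and 0.14 without that library). Marveld3, a relative of occludin, averaged 31.4 ± 11.6 units in mutant and 23.6 ± 1.09 units in control libraries, with 44.8 units in mutant replicate 3. Cxadr, the gene of the coxsackievirus and adenovirus receptor, averaged 41.3 ± 13.4 units in mutant and 33.9 ± 5.32 units in control libraries. Occludin itself, Ocln, averaged 45.4 ± 7.29 and tricellulin, Marveld2, 17.4 ± 2.04 units in mutants, against 51.1 ± 9.08 units of Ocln and 20.9 ± 2.63 units of Marveld2 in control libraries. Ocln and Marveld2 were the 2 of these 6 genes with a lower mean in mutant crypts, by a log2 of -0.16 ± 0.19 for Ocln and -0.25 ± 0.15 for Marveld2.

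Cadherins and catenins were high in all libraries, and the groups overlapped for each of the 4. Cdh17, the liver-intestine cadherin, had 552, 333 and 625 units in mutants, against 282, 361 and 433 units in control libraries, with mutant replicate 2 inside the control range (log2 difference of 0.46 ± 0.30, adjusted p of 0.605 in limma). The difference was 0.28 without mutant replicate 3 and 0.30 without control replicate 1. Cdh1, which encodes E-cadherin, had 278, 209 and 324 units in mutants, against 227, 249 and 250 units in control libraries. Mutant replicate 2 was the lowest of the 6 and the other mutant libraries the highest, and the log2 difference was 0.14 ± 0.20 (adjusted p of 0.794 in limma). The α-catenin gene Ctnna1 averaged 166 ± 28.8 and the p120-catenin gene Ctnnd1 128 ± 26.3 units in mutants, against 139 ± 7.01 units of Ctnna1 and 113 ± 8.05 units of Ctnnd1 in control libraries. All 4 had a higher mean in mutant crypts, at a median log2 difference of 0.20 with all libraries and 0.09 without mutant replicate 3. Epcam had 845, 675 and 1054 units in mutants, against 594, 722 and 783 units in control libraries, with overlap and a log2 difference of 0.28 ± 0.24 (adjusted p of 0.662 in limma). The Epcam difference was 0.12 without mutant replicate 3, 0.17 without control replicate 1 and 0.44 without mutant replicate 2.

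Of the 6 desmosome genes, 3 were higher in every mutant library than in any control library, beside 8.34% of all genes tested. These 3 encode armadillo proteins that link desmosomal cadherins to desmoplakin. The plakophilin genes Pkp1 and Pkp4, which are outside the members described here, overlapped between the groups. Their log2 differences were -0.22 ± 0.27 for Pkp1 and 0.32 ± 0.23 for Pkp4. Jup encodes plakoglobin, a close relative of β-catenin that also serves adherens junctions. It had 65.1, 50.1 and 81.1 units in mutants, against 41.5, 40.8 and 45.7 units in control libraries. Every mutant value was above every control, for a log2 difference of 0.58 ± 0.20 and an adjusted p of 0.589 in limma. The plakophilin gene Pkp3 had 43.7, 34.1 and 68.3 units in mutants, against 26.4, 26.4 and 30.7 units in control libraries. Its log2 difference of 0.73 ± 0.25 (adjusted p of 0.589 in limma) was 0.46 without mutant replicate 3. Pkp2, another plakophilin gene, had 24.3, 27.4 and 24.5 units in mutants, against 19.3, 20.8 and 19.0 units in control libraries. It had the narrowest spread of the 3, and its log2 difference of 0.35 ± 0.12 (adjusted p of 0.589 in limma) stayed between 0.30 and 0.39 when each library was left out. The 250 bases before the start of Jup are shown because, of these 3 genes, Jup alone had a window among those searched. Pkp2 and Pkp3 had none, so the Jup window does not stand for them. The Jup window held none of the 4 motifs, so no letter is in capitals.
Jup, chr11:100397791-100398040, minus strand: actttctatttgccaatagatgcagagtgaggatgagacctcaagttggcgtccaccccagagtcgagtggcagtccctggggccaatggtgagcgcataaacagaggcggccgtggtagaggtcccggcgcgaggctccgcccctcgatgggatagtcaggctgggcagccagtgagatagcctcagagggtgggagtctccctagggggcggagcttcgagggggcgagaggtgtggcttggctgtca

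Dsp, the gene of desmoplakin, which anchors keratin filaments, had 76.5, 56.2 and 59.1 units in mutants, against 67.4, 79.2 and 64.9 units in control libraries. The groups overlapped, and the log2 difference of -0.15 ± 0.17 (adjusted p of 0.742 in limma) turned to 0.09 with array weights. The desmosomal cadherin gene Dsg2 had 82.6, 59.9 and 103 units in mutants, against 64.1, 68.3 and 71.0 units in control libraries, also with overlap (log2 difference of 0.24 ± 0.21, and 0.05 without mutant replicate 3). Its partner Dsc2 averaged 70.1 ± 14.6 units in mutant and 53.9 ± 4.61 units in control libraries. The ratio of Jup to Dsp was 0.851, 0.891 and 1.37 in mutant and 0.615, 0.515 and 0.704 in control libraries, with no overlap, and was chosen after the values were seen. Over the 6 desmosome genes 5 had a higher mean in mutant crypts, and the median log2 difference was 0.35.

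**Figure D3:**
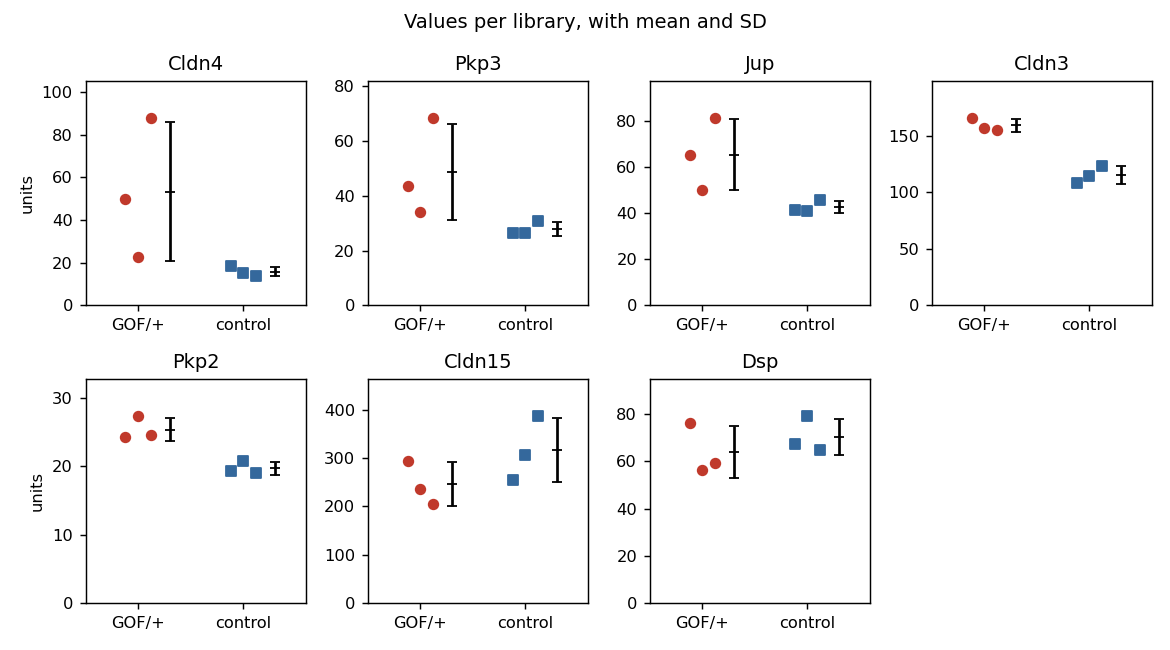
Units in each library for the 5 tested junction genes whose groups do not overlap (Cldn4, Pkp3, Jup, Cldn3 and Pkp2) and for Cldn15 and Dsp. Circles mark β-catenin GOF/+ and squares control libraries. Black bars give the mean and SD of 3 libraries, and axes start at 0. Cldn3 and Pkp2 have narrow mutant values, while Cldn4 and Pkp3 spread up to mutant replicate 3.

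Seen by library, the junction genes were higher in mutant replicates 1 and 3 than in mutant replicate 2 by their median. The median over the 26 genes of log2(value + 1) minus the control mean was 0.26, -0.07 and 0.49 in mutant replicates 1, 2 and 3 and -0.10, 0.01 and 0.10 in control replicates 1, 2 and 3. Mutant replicate 1 was above every control library for 16 genes, mutant replicate 2 for 7 and mutant replicate 3 for 19. Mutant replicate 2 was below every control library for 10 genes, mutant replicate 3 for 6 and mutant replicate 1 for 0. These counts were not made over all genes tested, so they have no share to be set beside and are a description only. The median of log2(value + 1) minus the control mean lay between -0.05 and 0.02 in every library over all genes tested. The enterocyte markers moved alongside, with mean scores on that scale of 1.11, 0.00 and 1.81 in mutant replicates 1 to 3 and -0.54, -0.21 and 0.75 in control replicates 1 to 3, and the Paneth cell markers stood the other way, with scores of -1.45, -0.05 and -1.95 in mutant replicates 1 to 3 and 1.05, -0.24 and -0.81 in control replicates 1 to 3. The 8 Paneth markers summed to 60700, 177000 and 39400 units in mutant and 370000, 174000 and 105000 units in control libraries. The 5 stem cell markers summed to 607, 819 and 105 units in mutant and 895, 1290 and 546 units in control libraries, so mutant replicate 3 was the lowest. Most of that sum was Olfm4, at 533, 731 and 54.6 units in mutant and 800, 1195 and 472 units in control libraries. Lgr5, Ascl2 and Smoc2 were also lowest in mutant replicate 3, whereas Axin2 was highest there, at 35.4 units. None of these lists had a member called by limma, and their part in the junction values was not tested.

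**Figure D4:**
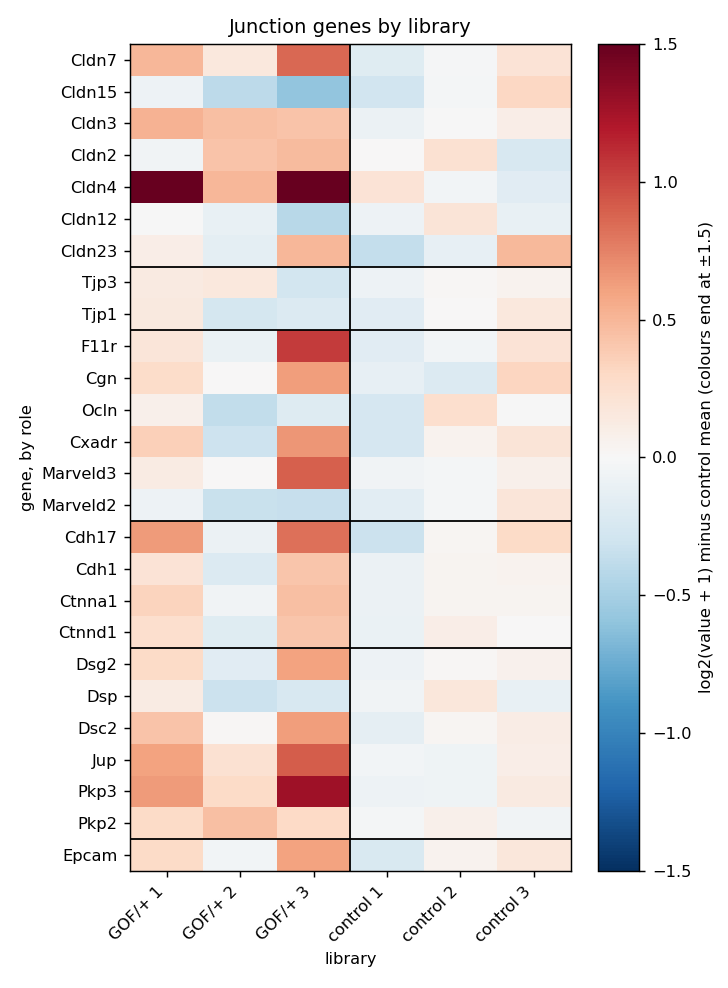
Each of the 26 junction genes tested (rows, with black lines between roles in the order of the levels plot) in each library (columns, β-catenin GOF/+ on the left), coloured by the difference of log2(value + 1) to the control mean. Mutant replicates 1 and 3 are mostly red, with 16 and 19 genes above every control. Mutant replicate 2 is mixed, with 7 above and 10 below every control. These counts were not made over all genes tested.

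Over the 26 members, 20 had a positive and 6 a negative log2 difference, or 76.9% higher, beside 47.3% higher and 52.7% lower of all genes tested. The median log2 difference was 0.26, beside -0.018 over all genes. Without mutant replicate 3 it was 0.09, with 18 genes higher and 8 lower, and without mutant replicate 2 it was 0.42. The lowest level of a tested member in either group was the 12.7 units of Cldn23 in control libraries, so none of the 26 was near the minimum of 1 unit. The genes are neighbours in function, were measured in the same libraries and were chosen with results known, so these counts are a description.

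A wider list of 89 genes linked to junctions was set beside them, of which 65 were tested. Of these 65, 41 had a higher and 24 a lower mean in mutant crypts, 0 were called, and the median log2 difference was 0.09. In 7 all mutant values were above all controls, and in 1 they were below, or 10.8% and 1.54% of the 65, beside 8.34% and 8.37% of all genes. The polarity genes Crb3 and Llgl2, which help to place the tight junction at the apical border, averaged 68.2 ± 24.4 and 41.2 ± 3.05 units in mutants, against 46.8 ± 1.79 units of Crb3 and 30.7 ± 0.864 units of Llgl2 in control libraries. Lsr, the gene of angulin-1 at corners where 3 cells meet, averaged 150 ± 25.7 units in mutant and 112 ± 3.59 units in control libraries. St14, which encodes the protease matriptase that can cut EPCAM, averaged 114 ± 42.5 units in mutant and 74.9 ± 6.41 units in control libraries. The actin gene Actg1 averaged 1205 ± 154 and the actin regulator Vasp 135 ± 24.7 units in mutants, against 856 ± 44.0 units of Actg1 and 109 ± 3.98 units of Vasp in control libraries. Dlg1, a polarity scaffold of the lateral membrane, was the gene with lower values, at 22.8 ± 0.551 units in mutant and 25.8 ± 1.16 units in control libraries. The other gene with higher values in every mutant library was Ppl, the gene of the desmosomal linker periplakin, with a mean of 4.47 units over all libraries. The adjusted p of the 7 genes before Ppl ran from 0.589 to 0.615 in limma.

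The largest log2 differences of the wider list belonged to genes of the actin-rich apical surface, whose groups overlapped. The actin gene Actb had 1493, 791 and 2208 units in mutants, against 680, 493 and 902 units in control libraries. Ezr, which encodes the microvillus linker ezrin, had 336, 174 and 626 units in mutants, against 124, 150 and 227 units in control libraries. The cadherins of the brush border, Cdhr2 and Cdhr5, averaged 311 ± 220 and 439 ± 277 units in mutants, against 136 ± 45.8 units of Cdhr2 and 208 ± 78.9 units of Cdhr5 in control libraries. For all 4, mutant replicate 3 was highest and mutant replicate 2 lay within the control range, the order in which the enterocyte scores also stood. These 4 genes were named after their values were seen.

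**Figure D5:**
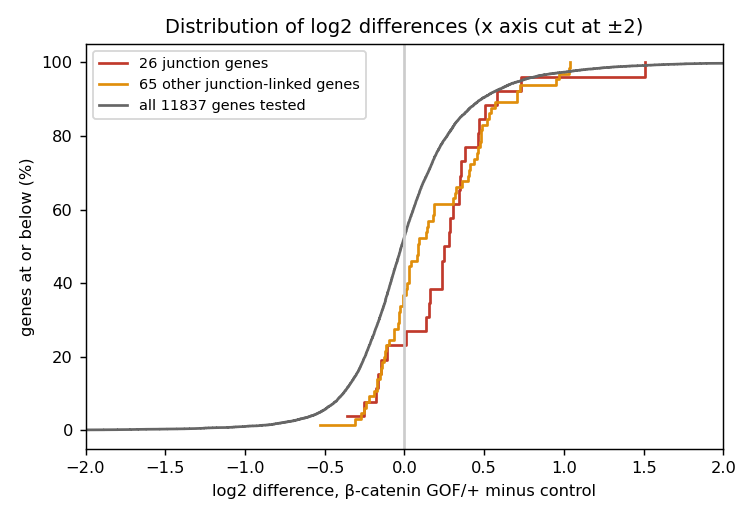
Cumulative share of genes (vertical axis, percent) by log2 difference of β-catenin GOF/+ minus control (horizontal axis), for the 26 junction genes, the 65 other junction-linked genes and all 11837 genes tested. The junction curve lies to the right, with a median of 0.26, beside 0.09 for the other list and -0.018 for all genes.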

How the data were processed

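The authors deposited a normalized signal per gene for 24930 genes in 6 libraries. The submitters' processing notes name kallisto 0.46.1, the package DESeq2 1.40.1 and build mm9, with no role or order. The step that made the values is not given in the sources used here. Of the values above 0, 0.0% are whole numbers, and library totals differ, so the values are neither counts nor a per-million unit. Absolute depth is unknown, and no counting interval is given. The column names call the mutant group a heterozygous exon change, and it was matched to the single group other than control.

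Values were tested as log2(value + 1), for the 11837 genes whose mean reached 1 unit. limma 3.58.1 (R 4.3.3) was fitted with a trend and no covariate, and p-values were adjusted by Benjamini and Hochberg over all of these genes, with a threshold of 0.05. Log2 differences are mutant minus control and are too small for low genes. The test was checked on simulated data.

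Values in every library are given for the 16 members with a mean of at least 5 units that were among the 2 highest of their role, or whose groups did not overlap, or whose log2 difference was at least 1 in size. Of the wider list, up to 8 genes with no overlap and a mean from 5 units up were to be named by size of difference, which gave 7. Other named genes were chosen after their values were seen. 1 gene that the choice by name would take is not reported here and enters no count of members. The members and lists were chosen with earlier results of these data known. Marker scores are the mean over a list of log2(value + 1) minus the control mean. Promoter windows and gene overlaps come from RefSeq on GRCm38.p6. The alternatives were other scalings, filters and pseudocounts, array weights, a replicate block, sex as a covariate and each library left out. Tables and figures were made in Python 3.11.15 (pandas 2.3.3, NumPy 2.4.6, matplotlib 3.10.9).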

Additional observations from a re-analysis of the deposited data

How the results depend on the processing

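0 junction genes and 0 genes of the wider list passed under any of the 15 alternatives. The 16 members given by library kept their direction in 233 of 240 values. The exceptions were Tjp3, which was -0.014 with upper quartile scaling and ran from -0.07 to 0.15 with each library left out, Cdh1, which ran from -0.0023 (without mutant replicate 3) to 0.31 with each library left out, and Dsp at 0.09 and Tjp1 at 0.15, both with array weights. Among these 16 members the lowest adjusted p was 0.0804, for Cldn4 with array weights in limma. With sex as a covariate the 5 tested genes without overlap had an adjusted p of 0.921 in limma.

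Over all genes, against 0 called higher and 2 called lower, 1 was called higher with a pseudocount of 0.1 and 1 with a pseudocount of 5, and array weights called 20 higher and 7 lower. 0 were called lower with no filter, with a pseudocount of 5, with sex as a covariate and with the replicate block, which also called 0 higher. With each library left out, 0 to 2 were called higher and 0 to 3 lower. Same-numbered libraries had correlations of deviations of -0.292, 0.333 and 0.325, and differently numbered ones ran from -0.487 to 0.212. Numbers 2 and 3 thus gave the highest correlations, and number 1 a negative one. These values do not settle if the numbers mark pairs, and the main test used no pairing. The cause of the changes in calls was not tested. With 3 libraries a group and no known depth, small differences were not resolved.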
